A study of Homo sapiens with 8 samples.

Results

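Integrins are the cell's main receptors for the surrounding matrix. Each is a heterodimer of an alpha and a beta subunit that spans the membrane, and most bind collagen, laminin, fibronectin or vitronectin outside the cell. Inside it, most are joined to actin through talin and kindlin, but the integrin with β4 is joined to keratin through plectin. The pairing decides the ligand: β1 pairs with many alpha subunits, β4 pairs with α6 alone in the laminin receptor of hemidesmosomes, and αv pairs with β1, β3 or β5, among others, in receptors for the RGD motif. The transcripts of 9 subunits were followed here, chosen by name: ITGA2, ITGA3, ITGA5, ITGA6, ITGAV, ITGB1, ITGB3, ITGB4 and ITGB5. All 9 were among the 12939 genes with values in every library.

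The cells were CSCs of MDA-MB-231, an established line of triple-negative breast cancer, sorted for high GFP from an Oct4a reporter and for RFP from the shRNA vector. All carried the reporter and the vector, under selection, with an shRNA that was a scramble sequence (3 libraries), against CDH2, which encodes N-cadherin (3 libraries), or against Cx43, a gap junction protein (2 libraries). According to the study, CDH2 shRNA clones were compared and the most efficient kept. Whether a clone there is a construct or a line from 1 cell is not stated, so what is particular to it and what follows the knockdown cannot be told apart. The cells were sorted and kept overnight before total RNA was taken, and libraries were made after removal of ribosomal RNA. The labels number the libraries within each group but do not say that they came from separate cultures, so p-values measure only the spread between these libraries, which may be technical.

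The values are log2(CPM + 1) from which the authors had removed the effect of the sequencing run, and read depth is unknown. The transcripts of CDH2 and of the gene for Cx43 were not analysed here, and neither knockdown was checked on its target. All 8 genes known to be high in MDA-MB-231, such as VIM and AXL, were between 5.77 and 9.81 in every library, and of 6 genes known to be low or absent in this line only EPCAM was analysed, at 2.21 to 2.75. Mitochondrially encoded transcripts took 0.594% to 1.01% of the CPM in scramble libraries and 1.16% to 2.36% in knockdown libraries, and their part in the differences below was not tested. Markers of other cells were sparse: 1 of 6 leukocyte genes (CD68), 1 of 4 endothelial genes (PECAM1) and 2 of 7 fibroblast genes (COL1A1 and PDGFRB) had values. The pair of fibroblast genes summed to 53.7 to 66.3 CPM with scramble, 40.4 to 52.6 CPM with CDH2 shRNA and 29.6 to 40.3 CPM with Cx43 shRNA, and their part was not tested. In bulk RNA, fewer cells of a type and less RNA per cell cannot be told apart.

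By GENCODE v44 on hg38, ITGA2 spans chr5:52989340-53094779 on the plus strand, ITGA5 chr12:54395261-54419266 on the minus strand and ITGA6 chr2:172427354-172506459 on the plus strand. ITGB4 spans chr17:75721328-75757818 on the plus strand, where its transcript is spliced from 40 exons. RefSeq promoter sequence (GRCh38.p14) was matched for 6 of the 9 subunits, in 11 windows. The 250 bases before the start site are shown for ITGA2, the subunit with the largest upward estimate in both knockdowns, and for ITGA5, whose estimate was below 0 in both. They were chosen after the values were seen. Capitals mark the GC box, GGGCGG on either strand (CCGCCC where it lies on the other strand), the site of Sp family factors. The ITGA2 window is chr5:52989102-52989351, plus strand, and ends just inside the first exon as GENCODE draws it. The ITGA5 window is chr12:54419267-54419516, minus strand.
ITGA2: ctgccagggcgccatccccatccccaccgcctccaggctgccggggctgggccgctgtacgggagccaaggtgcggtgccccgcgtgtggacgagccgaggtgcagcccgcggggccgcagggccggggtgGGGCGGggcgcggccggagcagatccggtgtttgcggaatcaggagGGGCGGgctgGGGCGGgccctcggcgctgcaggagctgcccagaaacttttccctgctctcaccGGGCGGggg
ITGA5: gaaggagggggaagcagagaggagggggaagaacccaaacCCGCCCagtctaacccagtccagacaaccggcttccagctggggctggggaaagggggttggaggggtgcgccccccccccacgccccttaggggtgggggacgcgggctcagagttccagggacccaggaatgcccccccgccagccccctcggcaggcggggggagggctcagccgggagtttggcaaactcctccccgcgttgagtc
The ITGA2 window held 4 GC boxes and the ITGA5 window 1. At least 1 GC box was present in 42.6% of 35116 RefSeq promoter windows of this length. Windows of ITGA6, ITGB1 and ITGB5 held up to 3 and those of ITGAV held 0. A link between the number of GC boxes and the values was not tested. Neither window held the AP-1 motif TGANTCA, which was present in 6.57% of windows, or TATAAA, present in 10.7%. The ITGA5 window held 1 E-box (CANNTG), a motif found in 61.8% of windows. These matches describe the letters of the windows and say nothing of binding.

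Divided by transcript length, the subunits covered a wide range in scramble libraries. ITGA3, a laminin receptor subunit, stood highest at 125.7 ± 8.57 CPM per kb (SD, n = 3), and ITGB1, the shared beta subunit, followed at 57.0 ± 8.18. The fibronectin receptor subunit ITGA5 was at 31.8 ± 1.83 CPM per kb. ITGB5 (20.1 ± 0.870) and ITGA6 (19.7 ± 0.858) came next, with ranges that overlapped. ITGAV was at 13.1 ± 3.90, followed at a distance by ITGB4 (3.73 ± 0.524), ITGB3 (2.18 ± 0.424) and the collagen receptor subunit ITGA2 (1.08 ± 0.317). No other pair of neighbours in this order overlapped in range. The order depends on the length used: with the length of all annotated exons, only 5 of 9 subunits kept their place, and ITGB1 moved below ITGA5 and ITGA6. The level of ITGB1 is uncertain, since its near-identical pseudogene ITGB1P1 had values of its own, 4.68 ± 0.23 log2(CPM + 1) with scramble, and reads may have been divided between them. Strand was not stated for these libraries, and exons of ITGA5, ITGA6 and ITGAV overlap antisense transcripts, none of which had values here. A protein-coding gene on the same strand overlaps 430 bases of ITGB3 exons and had no values either.

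**Figure D1:**
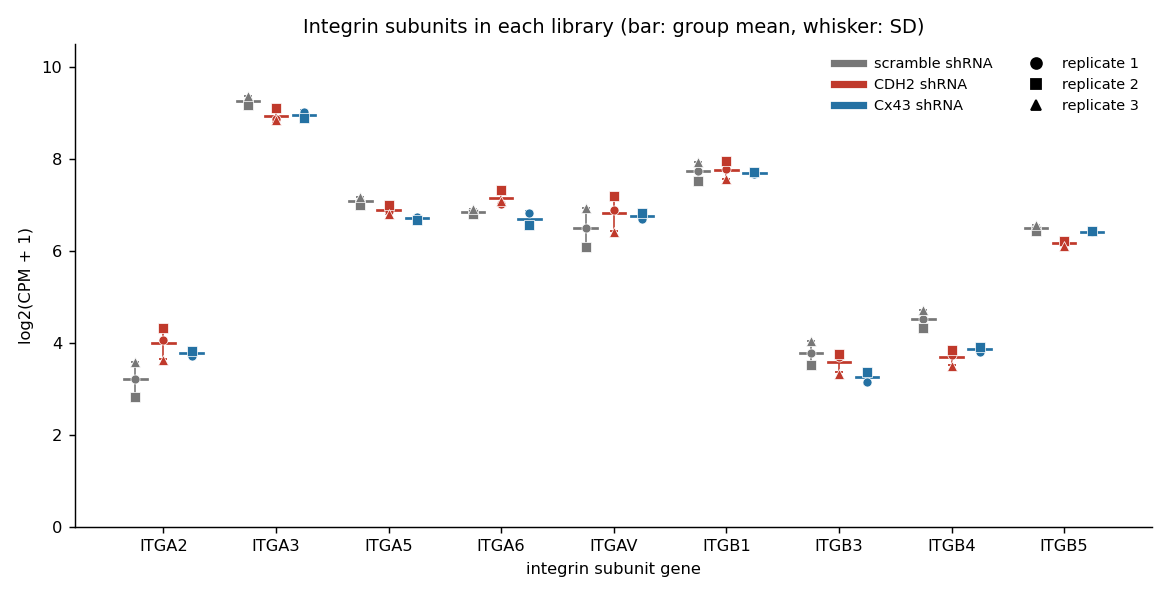
Value of each integrin subunit in each library, in log2(CPM + 1), for scramble shRNA (grey, n = 3), CDH2 shRNA (red, n = 3) and Cx43 shRNA (blue, n = 2), with symbols for the replicate number. Bars are group means and whiskers SD. The 5 knockdown libraries lie below the 3 scramble libraries for ITGB4 (3.49 to 3.90 against 4.32 to 4.71).

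The first comparison asked which subunits differed between CDH2 shRNA and scramble. ITGB4 was lower and was the only one of the 9 past threshold, which required a fold of at least 1.66 besides an adjusted p under 0.05. That threshold was passed by 2.06% of all genes, by 1.2% downward and 0.866% upward. Of the 9 estimates, 4 were above 0 and 5 below, with a median of -0.19 on the log2 scale, beside 0.01 over all genes. The ranges of the groups were apart for 6 of the 9, upward for ITGA2 and ITGA6 and downward for ITGA3, ITGA5, ITGB4 and ITGB5, where 51.9% of all genes had ranges apart. An unadjusted p under 0.05 was found for 4 of 9 subunits and for 37.5% of all genes.

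ITGB4 encodes the subunit whose long cytoplasmic tail ties hemidesmosomes to keratin through plectin. It was at 4.52, 4.32 and 4.71 log2(CPM + 1) in scramble replicates 1 to 3, and at 3.73, 3.83 and 3.49 in the CDH2 shRNA replicates. All 3 knockdown libraries lay below all 3 scramble libraries. The difference was -0.83 on the log2 scale (SE 0.15, 95% confidence interval -1.18 to -0.47), a level 1.77-fold lower, with an adjusted p of 0.028 (limma). Within replicate numbers 1, 2 and 3 it was -0.78, -0.49 and -1.22. The direction was the same in all alternatives, while of the 8 fits that left out a library, only the one without scramble replicate 2 kept the call. Without scramble replicate 1, CDH2 shRNA replicate 1 or CDH2 shRNA replicate 2 the adjusted p (limma) was 0.131, 0.101 and 0.0792. Without either Cx43 library, as with only the groups compared, it was 0.0613. Without scramble or CDH2 shRNA replicate 3, it was 0.00213 but the difference of -0.63 no longer reached the fold required. Those fits coincide, since the replicate 3 library left is then alone in its block and carries no weight. The fits without a Cx43 library coincide for this comparison too, so the 8 are not separate checks.

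ITGA6, the alpha partner of β4, was at 6.84, 6.79 and 6.92 in the scramble libraries and at 7.03, 7.33 and 7.08 in the CDH2 shRNA libraries. The groups did not overlap, but the difference of 0.30 (95% confidence interval -0.01 to 0.61) was not past threshold (adjusted p = 0.141, limma). The second laminin receptor subunit, ITGA3, was at 9.26, 9.17 and 9.36 with scramble and at 8.88, 9.11 and 8.84 with CDH2 shRNA. Its difference of -0.32 (-0.60 to -0.04) had an adjusted p of 0.101 (limma). Within replicate number 2 that difference was -0.06.

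ITGA2, which pairs with β1 to bind collagen, was at 3.21, 2.82 and 3.59 with scramble and 4.06, 4.33 and 3.62 with CDH2 shRNA. The lowest knockdown library was barely above the highest scramble library. The estimate of 0.80 had a wide interval (0.15 to 1.44) and an adjusted p of 0.0876 (limma). It was 0.86, 1.5 and 0.03 within the 3 replicate numbers. Without scramble or CDH2 shRNA replicate 3 the estimate was 1.18 with an adjusted p of 0.000245 (limma), past threshold, so those 2 libraries decide the call. It was also past threshold in the fit without the replicate block (adjusted p = 0.0288, limma).

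The RGD-binding subunits showed smaller or less even differences. ITGB5, the vitronectin receptor subunit, was at 6.49, 6.43 and 6.55 with scramble and 6.18, 6.22 and 6.11 with CDH2 shRNA, which gave the tightest estimate of the 9, -0.32 (-0.52 to -0.13), with an adjusted p of 0.051 (limma). Its fold of 1.25 was below that required. ITGA5 differed by -0.19 (-0.42 to 0.04; adjusted p = 0.191, limma), and within replicate number 2 by -0.0024. ITGAV was at 6.50, 6.07 and 6.93 with scramble and 6.89, 7.19 and 6.40 with CDH2 shRNA, so that the groups overlapped. Its differences of 0.39, 1.12 and -0.53 within replicate numbers did not share a direction. Without either group's replicate 3, ITGAV reached 0.76 (adjusted p = 0.00276, limma) and was past threshold, whereas without scramble replicate 2 it was -0.02. ITGB3, the partner of αv in the receptor known from osteoclasts, differed by -0.19 (-0.65 to 0.27; adjusted p = 0.48, limma). The common beta subunit, ITGB1, differed by 0.03 (-0.35 to 0.41; adjusted p = 0.9, limma), and its pseudogene ITGB1P1 by 0.11.

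**Figure D2:**
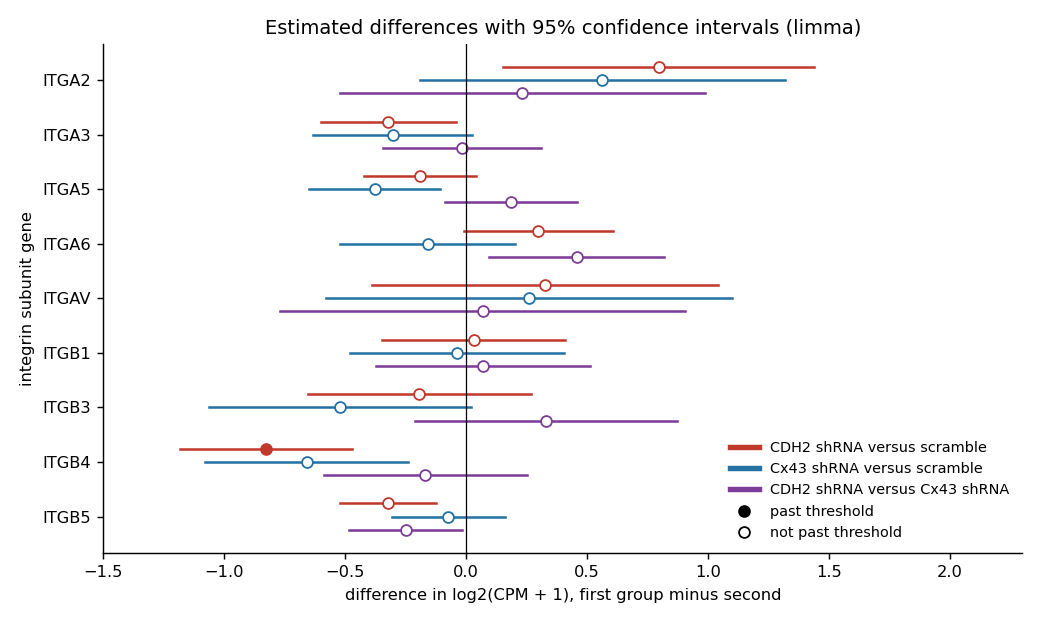
Estimated difference in log2(CPM + 1) for each subunit in 3 comparisons, with 95% confidence intervals from limma. The filled point marks the only estimate past threshold, ITGB4 with CDH2 shRNA (-0.83), and open points are not past threshold.

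The second comparison set Cx43 shRNA against the same scramble libraries. No subunit was past threshold, for which the fold had to be at least 1.5, and which 1.18% of all genes passed. An unadjusted p under 0.05 was found for 2 of the 9 (ITGA5 and ITGB4) and for 21.6% of all genes. Estimates were below 0 for 7 of 9 subunits and for 42.4% of all genes, and ranges were apart for 6 of 9 and for 52.8% of all genes. ITGB4 was at 3.81 and 3.90 in the Cx43 shRNA libraries, below all scramble libraries, with a difference of -0.66 (95% confidence interval -1.08 to -0.24; adjusted p = 0.116, limma). Without scramble replicate 2, ITGB4 and ITGB3 were both past threshold, and ITGB4 was past it too in the fit without the replicate block (adjusted p = 0.014, limma). Without scramble or CDH2 shRNA replicate 3, ITGB4 had an adjusted p of 0.0089, and with only the groups compared 0.00121 (limma), but the difference of -0.56 then fell just short of the fold required. Replicates 1 and 2 alone set that difference, since any replicate 3 library left is alone in its block. With only the groups compared, the gene's own spread also came from those libraries. The SE of ITGB4 was then 0.127, close to those of ITGA2 (0.131), ITGA6 (0.126) and ITGAV (0.133). It rested mainly on the spread that limma shares over all genes. The adjusted p of 0.00121 is thus not stronger evidence than that of 0.116 (limma). ITGB3, at 3.15 and 3.37, differed by -0.52 (-1.07 to 0.02; adjusted p = 0.242, limma).

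ITGA5 was at 6.74 and 6.68 with Cx43 shRNA, below the lowest scramble value of 7.004. Its difference of -0.38 (-0.65 to -0.11) had an adjusted p of 0.141 (limma). ITGA2 was at 3.71 and 3.83, above all scramble libraries, with a difference of 0.56 (-0.19 to 1.32; adjusted p = 0.343, limma). It too was past threshold without scramble or CDH2 shRNA replicate 3, at 0.75 (adjusted p = 0.0048, limma). ITGA3 (9.03 and 8.89) differed by -0.30 and ITGB5 (6.41 and 6.43) by -0.07. The remaining 3 subunits, ITGA6, ITGAV and ITGB1, had ranges that overlapped those of scramble, and differences of -0.16, 0.26 and -0.04.

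CDH2 and Cx43 shRNA were then compared directly. No gene of the 12939 (0%) was past an adjusted p of 0.05 (limma), while 2591 genes (20%) had an unadjusted p under 0.05. Among the subunits, 2 of 9 had one. ITGA6 was higher with CDH2 shRNA (7.03, 7.33 and 7.08) than with Cx43 shRNA (6.82 and 6.56), by 0.46 (0.10 to 0.82; adjusted p = 0.185, limma). For ITGB5 the difference was -0.25 (-0.48 to -0.02; adjusted p = 0.229, limma). For ITGB4 the difference was -0.17 with an interval of -0.59 to 0.25, which leaves room for a difference in either direction. The widest interval was that of ITGAV (-0.77 to 0.91).

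The make-up of the subunit pool followed these values. On the scale of CPM per kb, ITGB4 made up 4.49% ± 0.0916 of the 4 beta subunits with scramble (SD, n = 3), 2.59% ± 0.0557 with CDH2 shRNA (n = 3) and 2.93% ± 0.0918 with Cx43 shRNA (n = 2). The 3 groups did not overlap. ITGB1 made up 68.6% ± 1.59, 74.4% ± 1.47 and 70.8% ± 0.0405, and ITGB5 24.3% ± 1.88, 20.6% ± 1.6 and 24.4% ± 0.237. Of the 5 alpha subunits, ITGA3 made up 65.7% ± 0.829 with scramble, 58.9% ± 0.911 with CDH2 shRNA and 63.3% ± 0.861 with Cx43 shRNA. ITGA6 made up 10.3% ± 0.388, 14.2% ± 0.625 and 11.0% ± 0.803. ITGA2 stayed the smallest part, at 0.557% ± 0.120, 1.13% ± 0.184 and 1.01% ± 0.117. Shares within a pool depend on each other and on the transcript lengths, and were not tested. The summed beta level was 83.0 ± 10.0 CPM per kb with scramble, 78.1 ± 9.10 with CDH2 shRNA and 77.9 ± 1.52 with Cx43 shRNA. The summed alpha level was 191.3 ± 15.5, 171.2 ± 19.4 and 160.6 ± 8.86, where both Cx43 shRNA libraries (154.3 and 166.9) lay below the scramble range of 176.6 to 207.5.

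**Figure D3:**
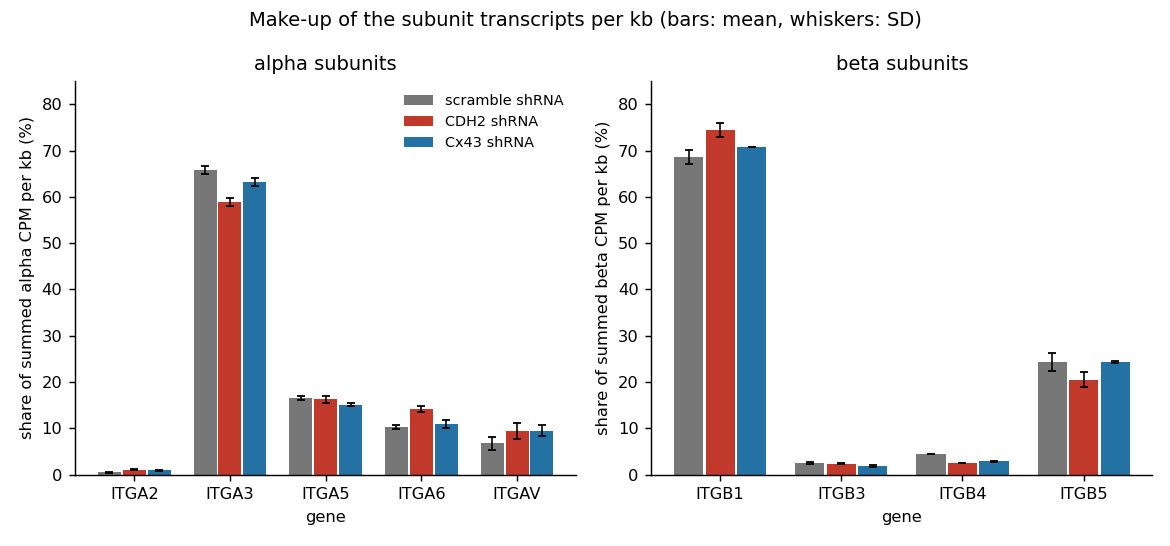
Share of each alpha subunit in the summed alpha level (left) and of each beta subunit in the summed beta level (right), in percent of CPM per kb. Bars are means and whiskers SD for scramble (grey, n = 3), CDH2 shRNA (red, n = 3) and Cx43 shRNA (blue, n = 2). ITGA3 and ITGB1 are the largest parts in all groups, and the ITGB4 bar is lower in both knockdowns.

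For 8 likely heterodimers, the beta value was subtracted from the alpha value within each library. A transcript ratio is no measure of the receptor at the surface. It cancels whatever raises or lowers both transcripts of a library alike. Each difference was tested with a two-sided exact permutation test over libraries. The test ignored the replicate number, although same-numbered libraries share the run correction. It cannot go below 0.1 for 3 against 3 or 0.2 for 3 against 2 libraries, so no pair could pass 0.05. Adjusted over the 16 tests, p was between 0.229 and 0.6.

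The largest difference of a pair with CDH2 shRNA was that of α6/β4. ITGA6 minus ITGB4 was 2.32, 2.47 and 2.21 in the scramble libraries, 3.30, 3.50 and 3.59 with CDH2 shRNA, and 3.01 and 2.66 with Cx43 shRNA. All knockdown libraries lay above all scramble libraries. The difference from scramble was 1.13 for CDH2 shRNA (exact p = 0.1), where the spread within groups was 0.13 and 0.15 (SD), and 0.50 for Cx43 shRNA (exact p = 0.2). The αv/β3 pair was at 2.71, 2.56 and 2.89 with scramble, 3.20, 3.45 and 3.07 with CDH2 shRNA, and 3.55 and 3.45 with Cx43 shRNA. It too was higher in all knockdown libraries, by 0.52 (exact p = 0.1) and 0.78 (exact p = 0.2).

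Among the β1 receptors, the collagen receptor pair α2/β1 was higher by 0.76 with CDH2 shRNA (exact p = 0.1) and by 0.60 with Cx43 shRNA (exact p = 0.2). The laminin receptor pair α3/β1 differed by -0.35 (exact p = 0.1) and -0.27 (exact p = 0.2). Neither pair overlapped scramble in either knockdown. For the fibronectin receptor pair α5/β1 the differences were -0.22 (exact p = 0.2), with overlap, and -0.34 (exact p = 0.2), without. The α6/β1 pair differed by 0.27 and -0.12, the αv/β1 pair by 0.30 and 0.30, and the αv/β5 pair by 0.65 and 0.33. In all, 4 of 8 pairs were apart from scramble with CDH2 shRNA and 6 of 8 with Cx43 shRNA, where 51.9% and 52.8% of single genes were. Both counts use the same scramble libraries, and several pairs share a subunit. The share among differences between other pairs of genes was not computed.

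**Figure D4:**
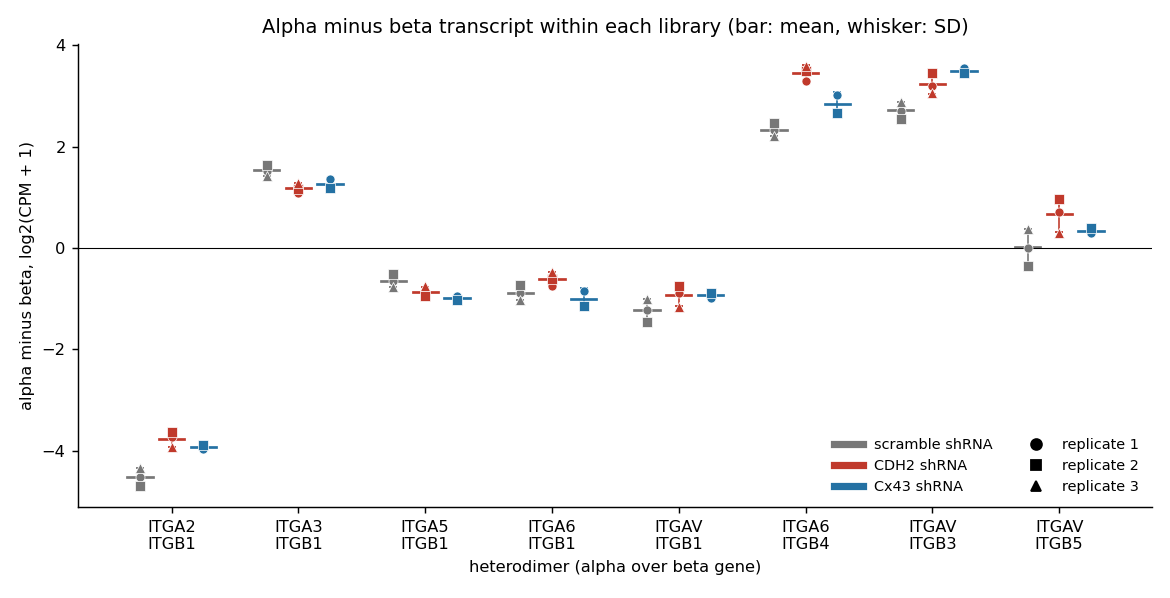
Alpha minus beta transcript, as a difference in log2(CPM + 1), within each library for 8 heterodimers, named by the alpha gene over the beta gene, with scramble in grey (n = 3), CDH2 shRNA in red (n = 3) and Cx43 shRNA in blue (n = 2). Bars are group means and whiskers SD. For ITGA6 and ITGB4 the CDH2 shRNA libraries lie at 3.30 to 3.59 and the scramble libraries at 2.21 to 2.47.

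Values were present for 6 further integrin subunits. ITGA7, a laminin receptor subunit best known from muscle, was at 2.65, 2.72 and 2.55 with scramble, 1.80, 1.52 and 1.80 with CDH2 shRNA, and 1.79 and 1.99 with Cx43 shRNA. All knockdown libraries lay below all scramble libraries. ITGA7 fell with CDH2 shRNA, by 0.94 on the log2 scale (SE 0.12; adjusted p = 0.0204, limma), and was the only one of the 6 past threshold. The call was lost without scramble replicate 1 (adjusted p = 0.105), CDH2 shRNA replicate 1 (0.0924) or 2 (0.0751), or either Cx43 library (0.0565), all by limma. With Cx43 shRNA its difference was -0.75 (adjusted p = 0.073, limma). ITGA7 was low, and the study dropped genes by their highest value in any library. Every ITGA7 knockdown value, at most 1.99, lay below the smallest such highest value among the genes kept. ITGA7 was thus kept through its scramble libraries, which can favour a fall with knockdown. The part of this filter in the ITGA7 differences was not tested. The subunits of leukocyte integrins had low values. ITGAX differed by -0.73 (adjusted p = 0.0617, limma) with CDH2 shRNA and -0.61 with Cx43 shRNA, and ITGAM by -0.09 and -0.58. ITGB2, their beta partner, differed by -0.26 and -0.16. ITGAE, the partner of β7 in the receptor for E-cadherin, differed by -0.36 and -0.14, and the collagen receptor subunit ITGA1 by 0.40 and 0.20.

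The genes around the integrins were taken from a list of 82, of which 73 had values. With CDH2 shRNA, 1 gene of the 73 was past threshold, downward, where 2.06% of all genes were past it. Against 14.3% of all genes with an adjusted p under 0.05, 14 of the 73 had one, 4 with estimates above 0 and 10 below, and the median of the list was -0.03. The gene past threshold was FERMT3, encoding kindlin-3, the kindlin of blood cells that activates integrins through the beta tail. It was at 5.73, 5.97 and 5.52 with scramble, 4.58, 4.68 and 4.96 with CDH2 shRNA, and 4.73 and 4.38 with Cx43 shRNA. FERMT3 fell with CDH2 shRNA by 1.00 on the log2 scale (SE 0.18; adjusted p = 0.0295, limma). The call was lost without scramble replicate 1 (adjusted p = 0.109), CDH2 shRNA replicate 1 (0.109) or 2 (0.105), or either Cx43 library (0.0575), all by limma. With Cx43 shRNA FERMT3 differed by -1.19 (adjusted p = 0.0669, limma), past threshold without scramble replicate 2 or 3 or CDH2 shRNA replicate 3. The kindlins of epithelial and mesenchymal cells, FERMT1 and FERMT2, had estimates of 0.51 (adjusted p = 0.0884) and 0.35 (adjusted p = 0.0527) with CDH2 shRNA by limma.

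The other cytoplasmic partners with an adjusted p under 0.05 in that comparison fell short of the fold required. They were the adaptor CRKL (0.42), the actin-binding TNS1 (0.42), the PINCH protein LIMS2 (-0.40) and the paxillin relative TGFB1I1 (-0.38). All 4 lost that adjusted p without scramble replicate 1, CDH2 shRNA replicate 1 or 2, or either Cx43 library, and with 2 residual degrees of freedom (limma), and CRKL, LIMS2 and TGFB1I1 also without scramble replicate 2. Of the 38 cytoplasmic partners with values, 22 had estimates above 0 and 16 below. Counting FERMT3, an adjusted p under 0.05 was found upward for 2 and downward for 3, beside 14.3% of all genes (limma). Talin (TLN1, 0.24; adjusted p = 0.288), focal adhesion kinase (PTK2, 0.29; adjusted p = 0.141) and the integrin-linked kinase ILK (-0.22; adjusted p = 0.148) did not pass an adjusted p of 0.05 (limma).

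Among the membrane partners, all 10 had estimates below 0 with CDH2 shRNA, where 49% of all genes did, with a median of -0.42. An adjusted p under 0.05 was found for 5 of them and for 14.3% of all genes (limma). Those 5 were the tetraspanins of the list, which hold integrins in membrane microdomains. CD82 was at 6.65, 6.75 and 6.53 with scramble and 5.95, 5.76 and 6.03 with CDH2 shRNA, a difference of -0.73 (SE 0.11; adjusted p = 0.0225, limma) that fell just short of the fold required. CD151, the close partner of α3 and α6 integrins, was at 7.59, 7.66 and 7.54 with scramble and 6.97, 7.10 and 7.12 with CDH2 shRNA, a difference of -0.53 (adjusted p = 0.0309, limma). CD63 differed by -0.51, CD81 by -0.42 and CD9 by -0.42, with adjusted p of 0.0232, 0.0323 and 0.0395 (limma). For each of the 5, all CDH2 shRNA libraries lay below all scramble libraries, where 51.9% of all genes had ranges apart in either direction. With the residual variance counted over the 2 directions in which the residuals vary, CD82 alone of the 5 had an adjusted p under 0.05 (0.0448, limma). Each of the 5 lost an adjusted p under 0.05 without scramble replicate 1, CDH2 shRNA replicate 1 or 2, or either Cx43 library, and CD81 also without scramble replicate 2. The highest of these (limma) was 0.142 for CD82, 0.194 for CD151 and CD63, 0.255 for CD81 and 0.264 for CD9. With Cx43 shRNA, CD82 differed from scramble by -0.46 (adjusted p = 0.134, limma), CD81 by -0.24 (adjusted p = 0.217, limma) and CD151 by -0.23 (adjusted p = 0.311, limma), with ranges apart from scramble. CD63 (-0.00; adjusted p = 0.995, limma) and CD9 (0.03; adjusted p = 0.909, limma) had ranges that overlapped it. In the direct comparison CD63 differed by -0.51 (95% confidence interval -0.73 to -0.28; adjusted p = 0.124, limma) and CD9 by -0.45 (-0.71 to -0.18; adjusted p = 0.143, limma).

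**Figure D5:**
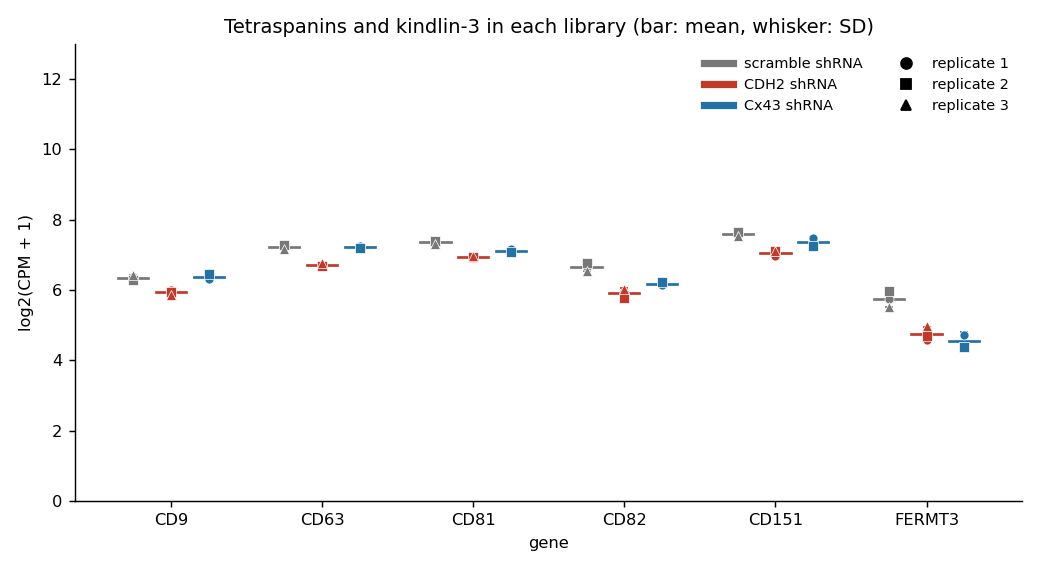
Values of 5 tetraspanins and of FERMT3 (kindlin-3) in each library, in log2(CPM + 1), with scramble in grey (n = 3), CDH2 shRNA in red (n = 3) and Cx43 shRNA in blue (n = 2). Bars are means and whiskers SD. The CDH2 shRNA libraries lie below the scramble libraries for all 6 genes, where 51.9% of all genes have ranges apart in either direction.

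Of the 25 ligands with values, 14 had estimates above 0 with CDH2 shRNA and 11 below, and none was past threshold. An adjusted p under 0.05 was found for 14.3% of all genes (limma). Among the ligands it was found for TNC (tenascin-C, 0.57; adjusted p = 0.0268, limma) and COL17A1, the hemidesmosomal collagen (0.58; adjusted p = 0.0254, limma). It was also found, downward, for MFGE8 (lactadherin, an αv ligand, -0.63; adjusted p = 0.0199, limma) and COL6A2 (-0.61; adjusted p = 0.0209, limma). All 4 lost it without scramble replicate 1, CDH2 shRNA replicate 1 or 2, or either Cx43 library, with adjusted p up to 0.189 for TNC and COL17A1, 0.151 for MFGE8 and 0.169 for COL6A2 (limma), and all 4 lost it with 2 residual degrees of freedom. With Cx43 shRNA, 18 of the 25 ligands had estimates below 0, beside 42.4% of all genes. The smallest adjusted p in the whole list of 73 was then that of MFGE8 (-0.56; adjusted p = 0.055, limma). FERMT3 and LIMS2 (-0.44; adjusted p = 0.0765, limma) followed. No gene of the list was past threshold with Cx43 shRNA or in the direct comparison. An unadjusted p under 0.05 (limma) was found for 23 of 73 genes with Cx43 shRNA, beside 21.6% of all genes, and for 15 of 73 directly, beside 20%.

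The genes most like a subunit over the 8 libraries were taken for the subunit with the largest difference in each comparison. For ITGB4 these were TMC6 (Pearson r = 0.9989), MB (0.9978) and TVP23C-CDRT4 (0.9978). For ITGA6 they were GSK3B (1.0000), COL27A1 (0.9992) and DDX3X (0.9984). Such likeness was common, since 405 genes had an r over 0.9 with ITGB4 and 383 with ITGA6, and all points share the 8 libraries and the correction for the run.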

How the data were processed

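Total RNA of the 8 libraries was sequenced after ribosomal depletion. The authors aligned the reads with STAR (2.6.1 in the submitters' processing notes) to hg38, quantified genes by expectation-maximization in Partek Flow, removed 1 low-quality sample, took the log of CPM + 1, corrected for the sequencing run and dropped low genes. The annotation is not given in the sources used here. The deposited values are log2(CPM + 1), and turned back they sum to between 684411 and 727083 CPM per library. One line without a gene name was left out of each file.

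The values were fitted with limma 3.58.1 (R 4.3.3) in 1 model. It held all 8 libraries, a term for the group and a block for the replicate number given in the labels, since the methods removed the run effect. For libraries of 1 replicate number, a gene's distances from its group means add up to 0 (at most 1e-04), so same-numbered libraries share the run correction. The fit has 3 residual degrees of freedom, but the residuals vary in 2 directions only, so its p-values may be too small, and an alternative counted 2. P-values are two-sided, with Benjamini-Hochberg adjustment over 12939 genes. Past threshold means an adjusted p under 0.05 and a fold of at least 1.66 (CDH2 shRNA, as in the methods) or 1.5 (Cx43 shRNA, as in the methods, and the direct comparison). No further filter or pseudocount was applied, and depth is unknown. Folds come from log2(CPM + 1) and so understate changes of low genes. Levels per kb use the length of the GENCODE v44 canonical transcript. The named genes are the 9 subunits, other subunits with values, adhesion genes past threshold or otherwise the 3 with the smallest adjusted p in a knockdown, and the 3 nearest genes. Further adhesion genes, tetraspanins among them, were named after their values were seen. The members and lists were chosen with earlier results of these data known. The fit was tested on simulated data with independent noise in each library. That cannot show whether its p-values hold for residuals that vary in 2 directions. Figures were drawn with matplotlib 3.10.9.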

Additional observations from a re-analysis of the deposited data

Results flagged for a closer look

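ITGA6 was flagged because the knockdowns lay on opposite sides of the scramble mean of 6.85. All 3 CDH2 shRNA libraries were above that mean and both Cx43 shRNA libraries were below it. Cx43 shRNA replicate 1, at 6.82, lay within the scramble range of 6.79 to 6.92, so Cx43 shRNA and scramble overlapped. The difference between the knockdowns was 0.46 on the log2 scale. It was tested in the direct comparison and failed the correction (adjusted p = 0.185, limma; range over the alternatives 0.0293 to 0.697). Without Cx43 shRNA replicate 2, the Cx43 estimate against scramble turned from -0.16 to 0.036.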

How the results depend on the processing

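Over 16 alternatives at most per result, 17 of the 27 combinations of subunit and comparison kept their direction throughout. The counts of subunits past threshold were 1 for CDH2 shRNA, 0 for Cx43 shRNA and 0 directly. Leaving out the replicate block gave 2 (ITGA2 and ITGB4) and 1 (ITGB4) in the knockdowns, with 5 adhesion genes for Cx43 shRNA and 5 directly. The deviations of same-numbered libraries correlated between -1 and 0.951, which the run correction itself fixes in part. Fitting only the groups compared gave 0 subunits and 0 adhesion genes for CDH2 shRNA, 1 subunit (ITGA2) and 5 adhesion genes for Cx43 shRNA, and 6 adhesion genes directly. The Cx43 shRNA and direct fits then rest on replicates 1 and 2 alone, since replicate 3 is alone in its block. Leaving out scramble or CDH2 shRNA replicate 3 likewise takes the weight from the other, so both give the same fit. A fold of 2 left 0 subunits for CDH2 shRNA. The adhesion count for CDH2 shRNA (1) was 2 after quantile normalization and 2 with a pseudocount of 0.1, and 14 without a fold. For Cx43 shRNA it was 1 after quantile normalization. Leaving out 1 library gave 0 to 2 subunits in each knockdown, 0 to 4 adhesion genes for CDH2 shRNA, 0 to 7 for Cx43 shRNA and 0 to 9 directly. Where that left 1 Cx43 library, it was assumed to vary like the others. With all exons, 5 of 9 subunits kept their place in the order. The cause of these changes was not tested.

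Reversed were ITGB1 with CDH2 shRNA and ITGA3 directly after quantile normalization (-0.013 and 0.11), and with only the groups compared ITGB1 with Cx43 shRNA (0.065) and ITGA3 directly (0.033). Leaving out 1 library, the CDH2 shRNA differences ranged from -0.13 to 0.24 for ITGB1, -0.015 to 0.76 for ITGAV, -0.41 to 0.067 for ITGB3 and -0.22 to 0.076 for ITGAM. The Cx43 shRNA differences ranged from -0.24 to 0.065 for ITGB1, -0.17 to 0.47 for ITGAV, -0.35 to 0.036 for ITGA6, -0.11 to 0.51 for ITGA1, and -0.21 to 0.0014 for ITGAE. Direct differences ranged from -0.18 to 0.088 for ITGA3, -0.092 to 0.42 for ITGA2, -0.30 to 0.28 for ITGAV and -0.12 to 0.17 for ITGB1. Of the heterodimers, α6/β1 with Cx43 shRNA reversed (-0.27 to 0.028). With 2 residual degrees of freedom, chosen after seeing the data, ITGB4 kept its call (adjusted p = 0.0414, limma). The filter on means left out ITGA1, ITGA7, ITGAM, ITGAX and COL17A1.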
